A study of Mus musculus with 2 samples.

Results

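The genes described here encode the constant regions of mouse antibodies and the joining chain of polymeric antibodies. They were listed by name: the heavy chain genes *Ighm*, *Ighd*, *Igha*, *Ighg2b* and *Ighg2c*, the kappa light chain gene *Igkc*, the lambda light chain genes *Iglc1*, *Iglc2* and *Iglc3*, and *Jchain*. They are 10 of the 32285 genes counted in both libraries. Each was followed in plasma cells, in B cell-like cells and in all other classes of sorted leukocytes from brown adipose tissue (BAT).

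An antibody pairs heavy chains with light chains, and the constant region of the heavy chain sets its class. A B cell that has not switched class makes IgM and IgD from *Ighm* and *Ighd* by splicing of a shared transcript, normally carries light chains of a single type, kappa or lambda, and may switch after activation to another class such as IgA (*Igha*) or IgG (*Ighg2b*, *Ighg2c*). Plasma cells devote much of their RNA to secreted antibody, the joining chain links IgM or IgA into polymers, and adipose tissue is known to hold B cells, among them innate-like cells that secrete IgM.

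CD45+ Dapi- cells were sorted from BAT after 30 minutes of collagenase digestion, and each group was captured as 1 droplet library in which a unique molecular identifier (UMI) marks each counted transcript. All mice were male AdipoQ-CreERT2 ATGLfl/fl mice of the strain C57Bl/6, aged 16 weeks by the sample labels (the published legend gives another age). They were injected intraperitoneally every other day for 1 week, with vehicle (control) or with 200 µl of tamoxifen at 10 mg/ml (AdipoΔ/Δ), and rested for 2 weeks. Tamoxifen activates a Cre driven by the adiponectin promoter, so that *Pnpla2*, the gene of the lipase ATGL, is deleted in adipocytes and not in the sorted leukocytes. No group received tamoxifen without the floxed gene, so the drug and the deletion cannot be told apart, and how many mice went into a library was not found in the labels or the article. In the sorted cells *Pnpla2* had 399 UMIs in the control and 477 in the AdipoΔ/Δ library (37.1 and 42.2 CPM, counts per 1e6 UMIs), which does not test a deletion made in adipocytes. The adipocyte transcript *Adipoq* had 6 and 2 UMIs, and *Ptprc*, the gene of CD45, was seen in 80.4% of cells of either library. *Pnpla2*, *Adipoq* and *Ptprc* were chosen after their values were seen.

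The control library held 2597 barcodes with 11327187 UMIs, and the AdipoΔ/Δ library 2381 barcodes with 12028844 UMIs. Kept as cells were barcodes with 200 or more genes seen and no more than 10% of UMIs from mitochondrial genes, 2279 and 2016, with medians of 3678 and 3942 UMIs. The libraries share 4 barcodes, and 0 plasma cells carry any of them. Cells were clustered without the antibody genes, and of 17 clusters 12 were named from marker lists, with the ending "-like" for a match to a list. The B cell-like cluster matched 10 B cell markers and was led by *Cd79a*, *Ebf1* and *Ighd*. Plasma cells were taken in any cluster as cells with at least 5 *Jchain* UMIs. This gave 16 plasma cells in the control and 8 in the AdipoΔ/Δ library, 260 and 91 B cell-like cells, and 2002 and 1917 cells of other classes. B cell-like cells were 11.4% (10.1 to 12.8%) of kept control cells and 4.51% (3.65 to 5.51%) of kept AdipoΔ/Δ cells. By a gate on marker genes instead of clusters there were 116 and 74 B cells, a smaller difference. With a mitochondrial limit of 2% instead of 10% there were 107 and 20 B cell-like cells, a larger relative difference. A further 1 control cell lay in the plasma cell-like cluster with 0 *Jchain* UMIs and belongs to none of these classes. Levels are the UMIs of a gene summed over the cells of a class, as CPM of all UMIs of those cells. Each UMI stands for 1 captured transcript end, so that levels of different genes are compared without scaling to length. Since each group is 1 library, the spread between mice is unknown. Ranges in parentheses are 95% limits computed exactly (Poisson for CPM, Clopper-Pearson for shares, conditional binomial for ratios) and cover counting error only.

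The heavy chain genes lie in 1 cluster on the minus strand of chromosome 12 (GRCm38), in the order *Ighm* (chr12:113418558-113422730), *Ighd* (chr12:113406604-113416324), *Ighg2b* (chr12:113302965-113307933), *Ighg2c* (chr12:113285325-113288932) and *Igha* (chr12:113254830-113260236). *Igkc* lies on the plus strand of chromosome 6 (chr6:70726435-70726966), where the annotation also places the long intergenic RNA *Gm30211* on the same strand. *Jchain*, a protein-coding gene outside the antibody loci, lies on chromosome 5 (chr5:88519809-88527891, minus strand). The lambda genes lie on the minus strand of chromosome 16. *Iglc3* (chr16:19065230-19065681) is next to *Iglc1* (chr16:19061618-19062071), and *Iglc2* (chr16:19198396-19200351) is farther off and overlaps the joining segment *Iglj2*. An antisense gene on the plus strand, *2010309G21Rik*, overlaps *Iglc1* and *Iglc3*. *Iglc2* and *Iglc3* are near copies of each other, which bears on how reads are told apart. The last 120 coding bases of each are shown 5′ to 3′, from chr16:19198539-19198658 (*Iglc2*), chr16:19065368-19065487 (*Iglc3*) and chr16:19061755-19061874 (*Iglc1*), all read from the minus strand of GRCm38, with capitals for bases that differ from *Iglc2*.
Iglc2: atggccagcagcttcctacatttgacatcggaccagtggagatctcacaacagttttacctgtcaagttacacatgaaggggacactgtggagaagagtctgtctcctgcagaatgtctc
Iglc3: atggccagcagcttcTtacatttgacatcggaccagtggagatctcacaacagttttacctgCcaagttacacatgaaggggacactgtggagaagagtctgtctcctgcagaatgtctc
Iglc1: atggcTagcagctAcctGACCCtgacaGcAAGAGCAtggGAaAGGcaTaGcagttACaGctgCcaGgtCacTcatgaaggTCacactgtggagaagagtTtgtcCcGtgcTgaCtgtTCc
*Iglc3* differs from *Iglc2* at 2 of these bases (98.3% identity) and *Iglc1* at 38 (68.3% identity). Among all stretches of 55 bases, the length of the cDNA read, in the annotated transcripts, 33 are shared between *Iglc2* and *Iglc3*, which is 5.92% of those of *Iglc2* and 8.29% of those of *Iglc3*. *Ighg2b* and *Ighg2c* share 55 such stretches, 2.10% and 4.33% of theirs. No other pair of listed genes shares a stretch of this length.

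The listed genes together held 115220 UMIs in kept control cells (1.07% of all their UMIs) and 123462 in kept AdipoΔ/Δ cells (1.09%). Plasma cells carried 88.2% of these UMIs in the control and 93.8% in the AdipoΔ/Δ library, although they are 0.702% and 0.397% of the cells. B cell-like cells carried 9.64% and 3.68%, and the other classes 2.14% and 2.57%. A few plasma cells therefore decide the summed level of these genes in each library.

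**Figure D1:**
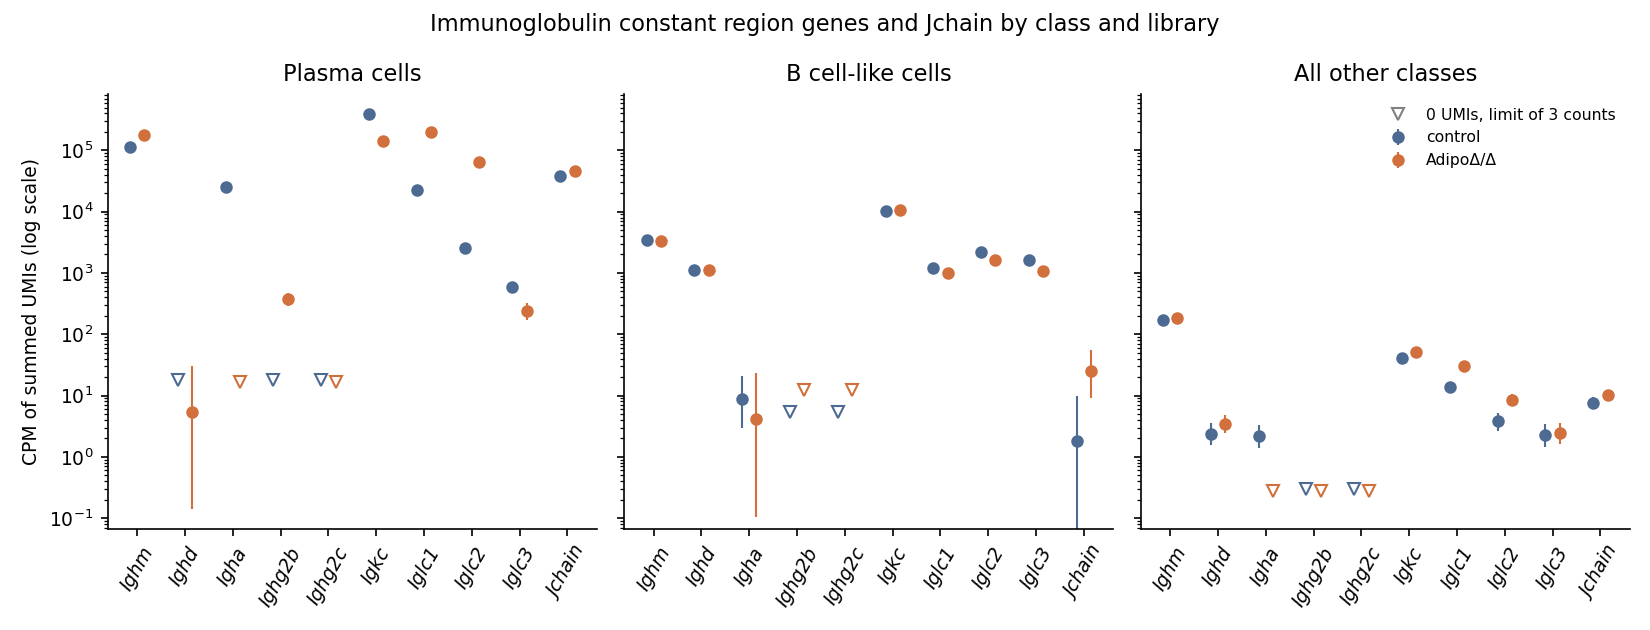
Level of each listed gene in plasma cells, B cell-like cells and all other classes, as CPM of summed UMIs on a log axis, for the control (blue) and AdipoΔ/Δ (orange) library. Points are class sums with 95% Poisson intervals and open triangles mark genes with 0 UMIs at the limit of 3 counts. *Ighm* falls from 113978 CPM in control plasma cells to 3476 in B cell-like cells and 173 in other classes.

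*Ighm* encodes the mu chain of IgM. Its level was 113978 CPM (112373 to 115599) in control plasma cells and 178793 (176857 to 180744) in AdipoΔ/Δ plasma cells. In B cell-like cells it was 3476 CPM (3323 to 3634) and 3343 (3116 to 3583), and in all other classes 173 (165 to 181) and 183 (175 to 192). The order of the classes was the same in both libraries, with no overlap of intervals between classes.

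*Ighd*, the delta chain gene of IgD, was largely limited to B cell-like cells, at 1106 CPM (1021 to 1197) in the control and 1100.5 (972 to 1242) in the AdipoΔ/Δ library. Plasma cells had 0 UMIs of 168849 in the control, which allows up to 17.8 CPM, and 1 UMI in the AdipoΔ/Δ library (5.48 CPM). Other classes had 2.40 and 3.49 CPM. *Ighd* per *Ighm* in B cell-like cells was 0.318 (0.290 to 0.349) and 0.329 (0.285 to 0.379), which are equal within counting error.

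The switched heavy chain genes were close to absent outside a few plasma cells. *Igha*, the alpha chain gene of IgA, had 4213 UMIs in control plasma cells, all of them in 1 cell, and 0 of 182362 UMIs in AdipoΔ/Δ plasma cells, which allows up to 16.5 CPM. B cell-like cells held 5 and 1 *Igha* UMIs, and other control classes 22 UMIs spread over 22 cells (2.20 CPM). In other AdipoΔ/Δ classes there were 0 *Igha* UMIs, which allows up to 0.275 CPM. *Ighg2b*, a gamma chain gene of IgG, had 68 UMIs in AdipoΔ/Δ plasma cells and 0 in each other class of either library. *Ighg2c*, the other listed gamma chain gene, had 0 UMIs in every class of both libraries, which allows up to 5.36 and 12.5 CPM in the B cell-like cells of the control and AdipoΔ/Δ library.

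*Igkc* was the most abundant listed gene in control plasma cells, at 399173 CPM (396165 to 402198), and stood at 143209.7 (141478 to 144957) in AdipoΔ/Δ plasma cells. In B cell-like cells it was the highest of the 10 genes in both libraries, at 10203 and 10751 CPM, and in other classes it was 40.7 and 51.9 CPM. *Iglc1* stood at 22381 CPM in control and 201605 in AdipoΔ/Δ plasma cells, at 1208 and 1013 in B cell-like cells and at 14.0 and 30.7 in other classes. Summed over AdipoΔ/Δ plasma cells, *Iglc1* stood above *Ighm* and *Igkc*, with 17951 of its 36765 UMIs in 1 cell.

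*Iglc2* had 2517 and 64564 CPM in plasma cells, 2216 and 1609 in B cell-like cells, and 3.79 and 8.54 in other classes. *Iglc3* had 580.4 and 236 CPM in plasma cells, 1626 and 1088 in B cell-like cells, and 2.30 and 2.48 in other classes. *Iglc3* was the only listed light chain gene with a higher level in B cell-like than in plasma cells of both libraries. *Jchain*, by which the plasma cells were chosen, had 38271 and 45958 CPM in them by construction. In B cell-like cells it had 1 and 6 UMIs, and in other classes 7.68 and 10.3 CPM.

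The share of cells with a UMI depends on depth, since B cell-like cells had medians of 1796.5 and 2112 UMIs and the other classes 4194 and 4085. Each cell was therefore also thinned to 1000 UMIs. *Ighd* was then seen in 64.1% (57.2 to 70.6%) of control and 67.5% (55.9 to 77.8%) of AdipoΔ/Δ B cell-like cells, against 0.270% and 0.299% of other cells. *Igkc* was seen in 94.7% and 96.1% of B cell-like cells, against 4.58% and 4.90% of other cells. *Ighm* was seen in 92.8% and 94.8% of B cell-like cells, against 14.2% (12.6 to 15.8%) and 17.5% (15.7 to 19.4%) of other cells. The other classes thus carried *Ighm* in more cells than *Igkc*, the reverse of the order of the summed levels in B cell-like cells. By the rule for plasma cells, every cell outside them holds under 5 *Jchain* UMIs, so its shares are not given.

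The plasma cells were described 1 by 1, because they are few and hold most of the UMIs. Just inside the limit of 5 *Jchain* UMIs lay control cells with 6, 11 and 14 UMIs. Just outside it, the highest count was 2 UMIs in the control and 3 in the AdipoΔ/Δ library. The next control plasma cell had 43 *Jchain* UMIs, and the range reached 2166, whereas the AdipoΔ/Δ plasma cells ran from 147 to 2276. The 3 control cells below 43 lay in a monocyte-like and in unnamed clusters, and antibody genes and *Jchain* made up 0.335%, 8.23% and 1.39% of their UMIs, in the same order. In the 13 control cells with at least 40 *Jchain* UMIs the antibody genes and *Jchain* made up 28.0 to 76.0% of all UMIs, with a median of 54.7%. In the 8 AdipoΔ/Δ plasma cells they made up 50.7 to 75.2%, with a median of 59.6%. The limit of 40 UMIs was chosen after the values were seen.

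**Figure D2:**
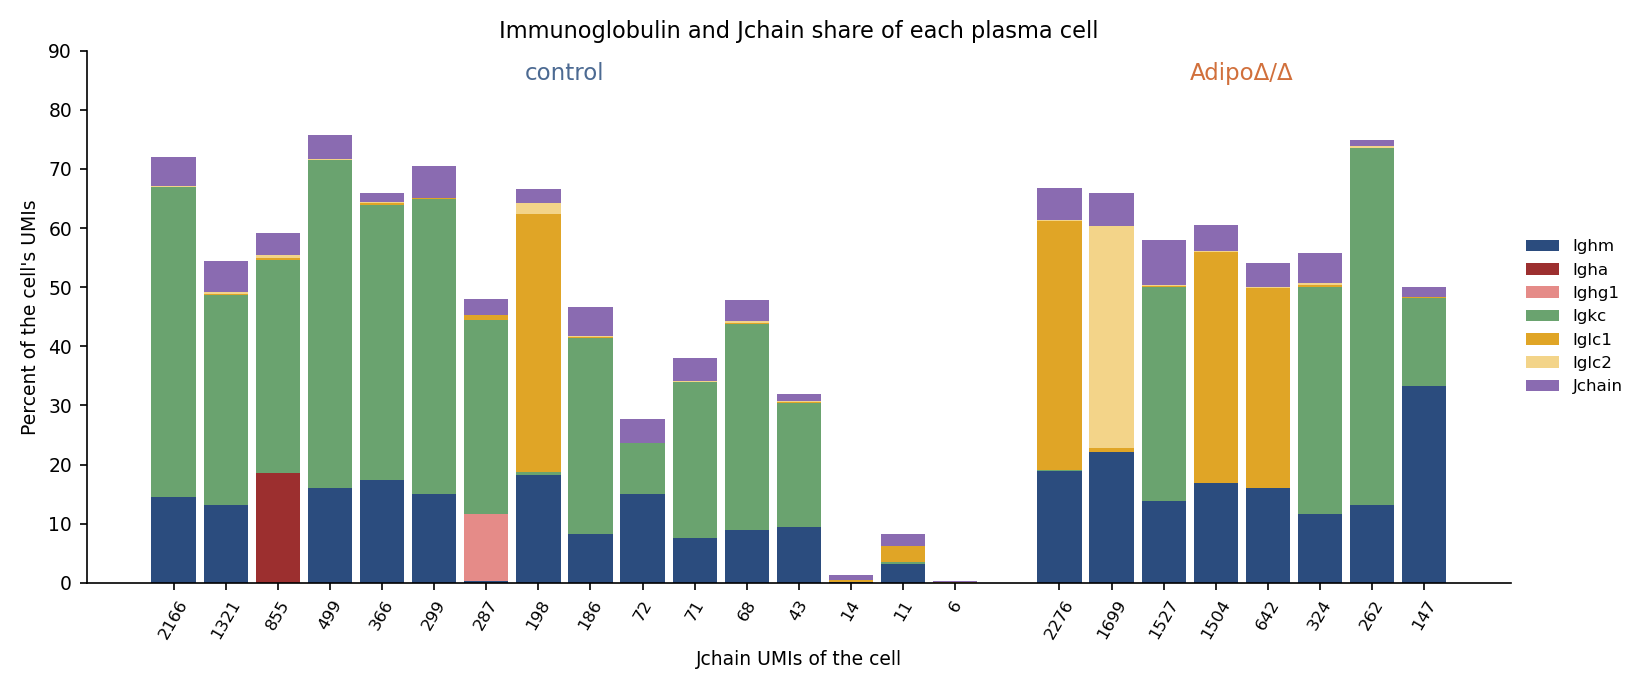
Share of each plasma cell's UMIs taken by the heavy chain genes *Ighm*, *Igha* and *Ighg1*, the light chain genes *Igkc*, *Iglc1* and *Iglc2*, and *Jchain*, 1 bar per cell, with the *Jchain* UMIs of the cell on the horizontal axis (16 control cells on the left, 8 AdipoΔ/Δ cells on the right). The 3 control cells with 14, 11 and 6 *Jchain* UMIs have the lowest bars, and 4 AdipoΔ/Δ cells are filled by lambda light chains.

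By the heavy chain gene with the most UMIs, among cells with at least 3 heavy chain UMIs, 12 of 14 control plasma cells were led by *Ighm*, 1 by *Igha* and 1 by *Ighg1*. *Ighg1*, a gamma chain gene outside the list of 10, had 1189 UMIs in that cell beside 30 of *Ighm*. All 8 AdipoΔ/Δ plasma cells were led by *Ighm*. In cells with at least 40 *Jchain* UMIs the leading heavy chain gene took at least 97.5% of heavy chain UMIs in the control and at least 99.1% in the AdipoΔ/Δ library. Each plasma cell was thus close to a single heavy chain class. Of the 68 *Ighg2b* UMIs in AdipoΔ/Δ plasma cells, 62 came from 1 cell that also held 6770 *Ighm* UMIs, so no plasma cell was led by *Ighg2b*.

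By light chain, with at least 3 light chain UMIs and at least 80% of them of 1 type, 12 of 15 control plasma cells were kappa and 3 were lambda, and 4 of 8 AdipoΔ/Δ plasma cells were kappa and 4 lambda. Kappa made up 94.0% of light chain UMIs in control and 35.0% in AdipoΔ/Δ plasma cells. The exact intervals of these shares of cells, 51.9 to 95.7% and 15.7 to 84.3%, overlap. Of the 3 control lambda cells, 2 had under 40 *Jchain* UMIs, and above that limit 12 control cells were kappa and 1 was lambda. In cells with at least 40 *Jchain* UMIs the leading type held at least 97.5% of light chain UMIs in the control and 98.1% in the AdipoΔ/Δ library. The lambda cells were led by *Iglc1*, except for 1 AdipoΔ/Δ cell with 11518 *Iglc2* UMIs, 194 of *Iglc1* and 9 of *Iglc3*. In that cell the near copies *Iglc2* and *Iglc3*, shown above, were counted apart despite their shared stretches. The median cell held 2.92 light chain UMIs per heavy chain UMI in the control (0.577 to 4.10 over its 13 cells) and 2.28 in the AdipoΔ/Δ library (0.452 to 4.59).

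A variable gene is only a part of what sets the antibody of a cell, so a shared pair of genes does not by itself show a shared antibody. Some calls rest on few UMIs, such as 1 *Ighv8-8* UMI in a control cell with 4197 *Ighm* UMIs. A leading heavy and a leading light variable gene were both seen in 17 plasma cells, and 3 combinations occurred in more than 1 cell, covering 7 cells. *Ighv3-6* with *Igkv4-59* was seen in 2 control cells, with 47 and 15 *Ighv3-6* UMIs. *Ighv9-3* with *Iglv1* was seen in 2 AdipoΔ/Δ cells, with 14 and 9 *Ighv9-3* UMIs. *Ighv1-11* with *Igkv8-16* was seen in 2 control cells and 1 AdipoΔ/Δ cell, where it rests on 1 UMI of each gene beside 24 and 7 *Ighv1-11* UMIs in the control cells. Another control cell carried *Ighv1-11* and another *Igkv8-16*, each with 1 UMI and without a partner. An AdipoΔ/Δ cell held *Ighv11-2* with *Igkv14-126* (4 and 23 UMIs), a combination known from B-1 cells that bind phosphatidylcholine, and 0 control plasma cells held it.

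B cell-like cells held *Ighm* and *Ighd* together. Both genes were seen in 197 of 260 control cells (75.8%) and in 78 of 91 AdipoΔ/Δ cells (85.7%), with medians of 6 *Ighm* and 2 *Ighd* UMIs per cell in both libraries. *Ighm* led in 216 of 233 control cells with at least 3 heavy chain UMIs (92.7%, 88.6 to 95.7%) and in 75 of 86 AdipoΔ/Δ cells (87.2%, 78.3 to 93.4%), and *Ighd* led in the remaining 17 and 11. A switched heavy chain gene had a UMI in 4 control and 2 AdipoΔ/Δ cells, with at most 2 and 1 UMIs in a cell, and led in 0 of the 233 and 86 cells.

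Light chains were mixed in B cell-like cells in a way they were not in plasma cells. Kappa made up 66.9% (65.9 to 67.9%) of light chain UMIs in control and 74.3% (72.9 to 75.8%) in AdipoΔ/Δ B cell-like cells. Of 258 control cells with at least 3 light chain UMIs, 80 were kappa, 14 lambda and 164 mixed, and of 90 AdipoΔ/Δ cells 45 were kappa, 6 lambda and 39 mixed. In plasma cells of both libraries 0 cells were mixed. In cells with more kappa than lambda UMIs, 215 and 83, *Iglc2* was seen in 90.7% of control and 83.1% of AdipoΔ/Δ cells. There, *Iglc2* and *Iglc3* together had 27.9 and 21.7 UMIs per 100 *Igkc* UMIs, against 0.548 and 0.631 in kappa plasma cells. In other classes they had 15 and 21.2 per 100 *Igkc* UMIs. *Iglc1* differed from this, with 3.49 and 5.06 UMIs per 100 *Igkc* UMIs in the same B cell-like cells and 34.3 and 59.1 in other classes. Of the 140 *Iglc1* UMIs behind the control value of other classes, 52 lay in 1 NK cell-like cell. What gives the *Iglc2* and *Iglc3* UMIs in kappa cells was not tested. With *Igkc* and *Iglc1* alone, an alternative chosen after seeing the data, 90.6% of control and 88.6% of AdipoΔ/Δ B cell-like cells were kappa, against 80 of 258 and 45 of 90 with all lambda genes.

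**Figure D3:**
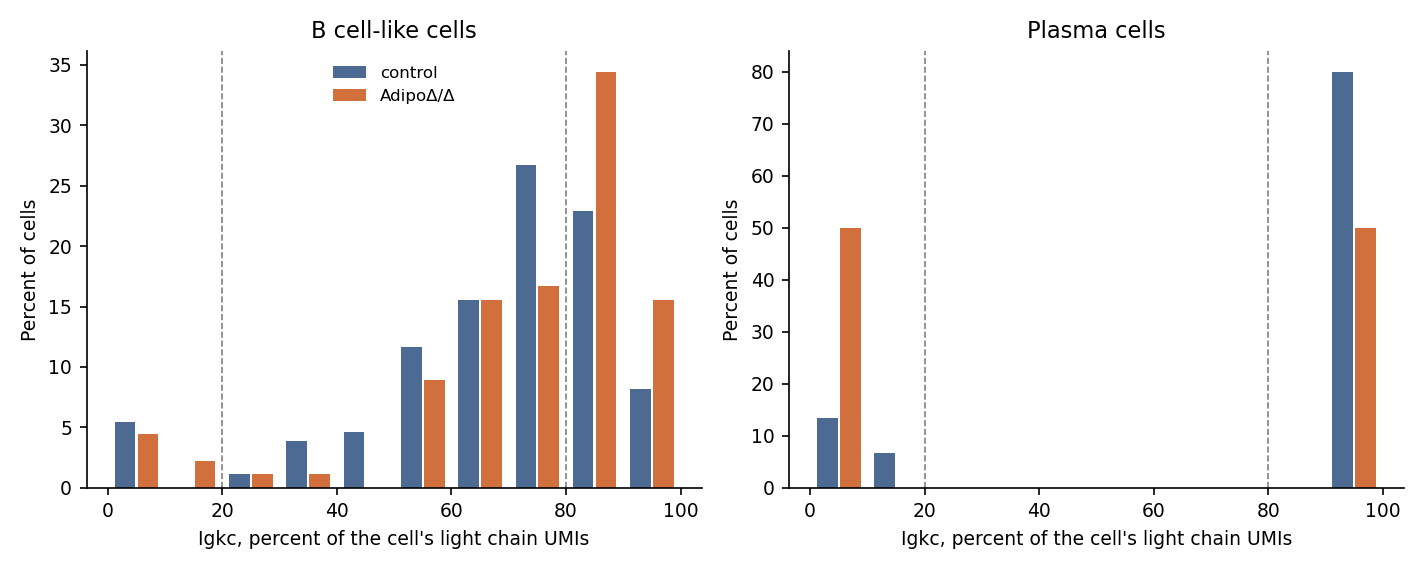
Cells by the share of *Igkc* among their light chain UMIs, in bins of 10%, as percent of the B cell-like cells (left) and plasma cells (right) of the control (blue) and AdipoΔ/Δ (orange) library with at least 3 light chain UMIs. Dashed lines at 20% and 80% bound the mixed range, which holds 164 of 258 control and 39 of 90 AdipoΔ/Δ B cell-like cells and 0 plasma cells.

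Between the libraries, a gene was called different in a class when its CPM ratio, AdipoΔ/Δ over control, was at least 1.5 or at most the inverse of 1.5, for any gene that had 20 or more UMIs there over both libraries. Of the 6 listed genes with enough UMIs in B cell-like cells, 0 were higher and 0 lower. Over all 4108 genes tested there, 28.4% passed in either direction, 18.5% higher and 9.96% lower in the AdipoΔ/Δ library. The ratios were 0.962 (0.885 to 1.04) for *Ighm*, 0.995 (0.858 to 1.15) for *Ighd* and 1.05 (1.01 to 1.10) for *Igkc*. The lambda genes stood below 1 and within the limit, at 0.838 (0.721 to 0.972) for *Iglc1*, 0.726 (0.646 to 0.815) for *Iglc2* and 0.669 (0.581 to 0.769) for *Iglc3*, where the median gene had a log2 ratio of 0.12. Heavy and kappa chain levels of B cell-like cells were thus within 1.5-fold of each other in the libraries. *Iglc3* lay next to the limit and passed it with a mitochondrial limit of 2% (0.568), with B cells by a marker gate (0.594), by the mean of single cells (0.659) and without the control cell with the most *Hbb-bs* UMIs (0.657, chosen after seeing the data). *Iglc1* changed direction without the 1 cell with the most *Iglc1* UMIs (1.05), with the marker gate (1.21) and with a mitochondrial limit of 2%, where it passed at 1.61. That cell held 149 of the 676 control UMIs, and the cause of the other changes was not tested.

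**Figure D4:**
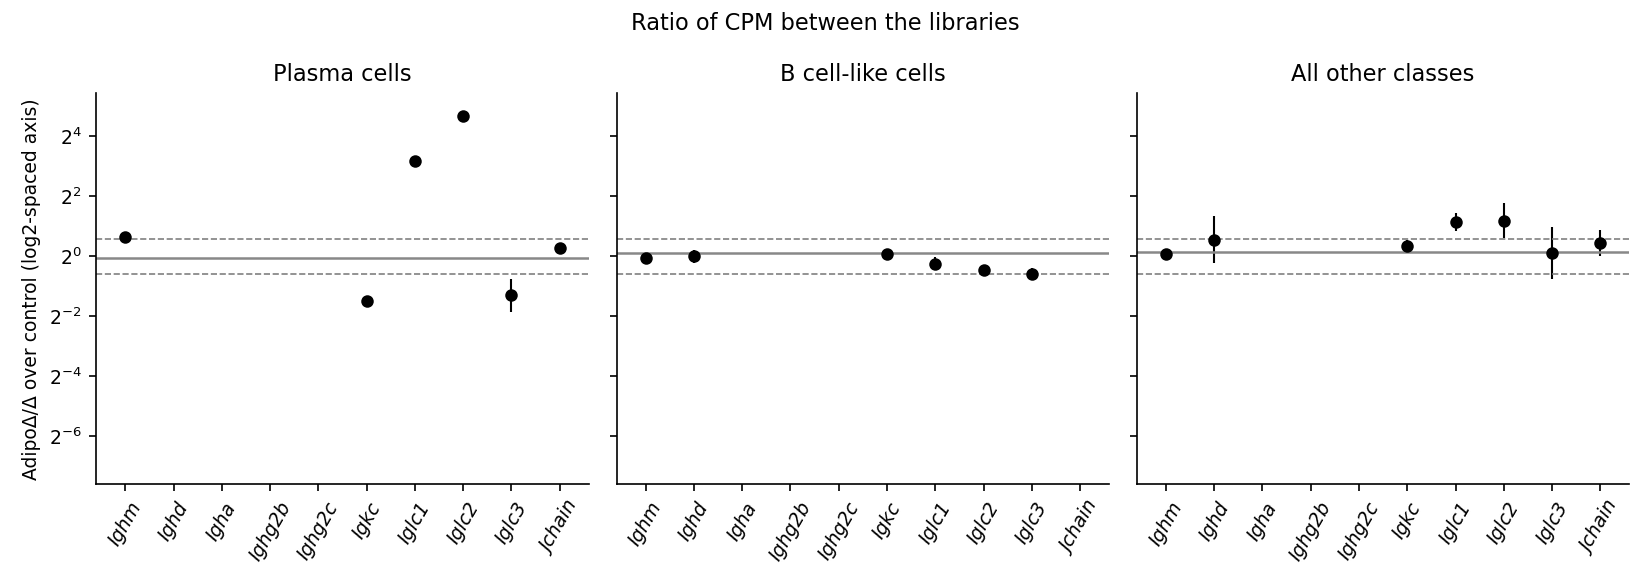
Ratio of CPM, AdipoΔ/Δ over control, of each listed gene with at least 20 UMIs in the class and UMIs in both libraries, on a log2-spaced axis, with 95% conditional binomial intervals. The grey line is the median of all genes of the class and dashed lines mark 1.5-fold. In B cell-like cells all 6 points lie between the dashed lines, and in plasma cells *Iglc2* (25.7) and *Iglc1* (9.01) lie highest.

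In plasma cells 8 listed genes had enough UMIs, of which 4 were higher, 3 lower and 1 within 1.5-fold, beside 40.8% of 781 genes past 1.5-fold in either direction. *Iglc1* was higher at a ratio of 9.01 (8.71 to 9.32), and *Ighm* at 1.57 (1.54 to 1.60). *Igkc* was lower at 0.359 (0.354 to 0.364), *Iglc3* at 0.406 (0.277 to 0.587), and *Jchain*, by which the cells were chosen, was within the limit, which is no independent result. The *Iglc1* ratio was 4.75 by the mean of single cells, 5.99 with cells of at least 2 *Jchain* UMIs and 6.02 without the cell with the most *Iglc1* UMIs. That is an AdipoΔ/Δ cell. In the control, 3455 of the 3779 *Iglc1* UMIs lay in 1 plasma cell, so the control level rests mainly on that cell. The intervals take every UMI as independent, whereas the UMIs come from 16 and 8 cells. *Iglc2* stood at 25.7 with all cells and at 0.670 without the 1 cell with the most *Iglc2* UMIs, which is an AdipoΔ/Δ cell. *Igha*, at least 1517-fold lower, and *Ighg2b*, at least 21.0-fold higher, were compared with the limit of 3 counts of the library at 0, and each rests on 1 cell for all or most of its UMIs. By the mean of single cells the *Igkc* ratio was 0.692, within 1.5-fold. With cells of at least 2 *Jchain* UMIs the *Ighm* ratio was 1.04, also within 1.5-fold. That limit summed 20 control and 22 AdipoΔ/Δ cells, instead of 16 and 8. In the AdipoΔ/Δ library, 12 cells with 2 *Jchain* UMIs held 27 *Ighm* UMIs, and 2 cells with 3 held 4. In the control, 4 cells with 2 *Jchain* UMIs held 2 *Ighm* UMIs. The ratios at this limit, 1.04 for *Ighm* and 5.99 for *Iglc1*, thus include more added cells in the AdipoΔ/Δ library. Of the 7 genes past 1.5-fold, *Iglc2*, *Igha* and *Ighg2b* thus rest on 1 cell each.

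In other classes 2 of the 8 listed genes with enough UMIs were higher, 1 was lower and 5 were within 1.5-fold. *Jchain*, among those within, is no independent result, since the rule for plasma cells holds it under 5 UMIs per cell there. The mix of cells pooled in other classes differed between the control and AdipoΔ/Δ library, such as 74 and 229 macrophage-like and 314 and 173 neutrophil-like cells. Over all 11950 genes tested, 22.4% passed in either direction, 16.6% higher and 5.78% lower, and the median log2 ratio was 0.13. *Iglc1* was higher at 2.19 (1.80 to 2.69) and *Iglc2* at 2.25 (1.53 to 3.38). Of the 140 control *Iglc1* UMIs, 52 came from 1 NK cell-like cell, and without this cell the *Iglc1* ratio was 3.49. *Igha*, which is lower at 7.97-fold or more, was seen in other classes only in the control library, and the source of these UMIs was not tested. *Ighm* (1.06, 0.993 to 1.13) and *Igkc* (1.27, 1.12 to 1.45) were within the limit. The pooled *Ighm* ratio joins classes that went opposite ways. *Ighm* stood at 425 CPM in control and 220 in AdipoΔ/Δ macrophage-like cells, and at 129 and 205 in neutrophil-like cells. The macrophage-like class itself pools clusters in unlike proportions. Its cluster led by *Folr2* had 457 and 454.5 CPM, in 61 control and 134 AdipoΔ/Δ cells. That led by *Gpnmb* had 195 (from 6 UMIs) and 50.2 CPM, in 13 and 95 cells. The part of this mix in the class values was not tested. By the mean of single cells *Igkc* passed the limit at 1.61, *Ighd* at 2.75 and *Iglc3* at 2.03. Without integration, a setting that also changed the normalization, *Iglc3* passed in the other direction, at 0.530. With a mitochondrial limit of 2% *Ighd* stood at 3.01 and *Iglc1* at 5.13.

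The ratio of *Ighm* to *Igkc* was compared across classes. Plasma cells had 0.286 (0.281 to 0.290) *Ighm* UMIs per *Igkc* UMI in the control and 1.25 (1.23 to 1.27) in the AdipoΔ/Δ library, where the value pools kappa cells with 4 lambda cells that held from 0 to 133 *Igkc* UMIs each, and B cell-like cells 0.341 (0.323 to 0.359) and 0.311 (0.287 to 0.337). Other classes together had 4.25 (3.82 to 4.75) and 3.54 (3.22 to 3.89). *Ighm* made up 70.3% and 63.1% of the listed UMIs of other classes, against 18.9% and 28.2% in plasma cells and 17.5% and 17.7% in B cell-like cells.

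**Figure D5:**
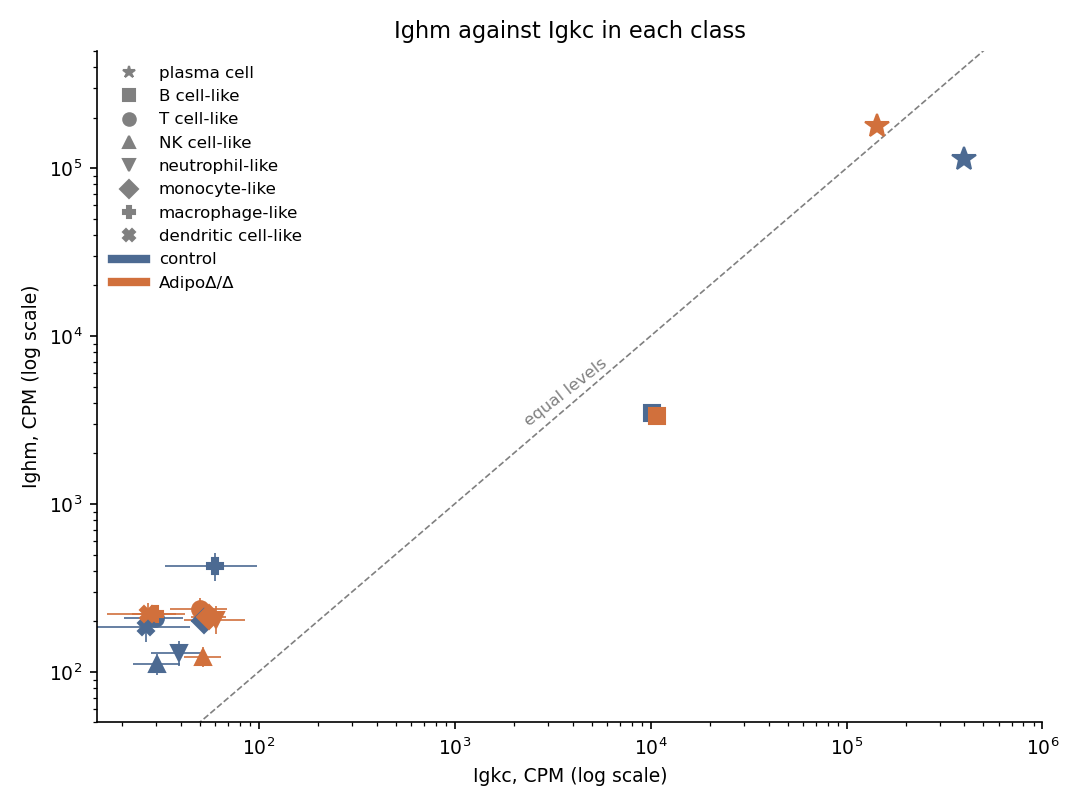
*Ighm* against *Igkc* in plasma cells, B cell-like cells and the other named classes of the control (blue) and AdipoΔ/Δ (orange) library, both axes CPM on a log scale, with 95% Poisson intervals. The dashed line marks equal levels, below which lie both B cell-like points and the control plasma cells. The other classes lie above it, such as AdipoΔ/Δ dendritic cell-like cells with 8.05 *Ighm* UMIs per *Igkc* UMI.

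Apart from B cell-like and plasma cells, *Ighm* exceeded *Igkc* in each named class, but not in each unnamed cluster. In the AdipoΔ/Δ library the unnamed cluster led by *Gm26917* had 23 *Ighm* and 26 *Igkc* UMIs. That led by *Lyz1* had more *Ighm*, with 143 and 98 UMIs, and 35 of the 98 *Igkc* UMIs lay in 1 cell. Over the 12 pairs of such a named class and library the ratio ran from 2.37 (1.83 to 3.09) in AdipoΔ/Δ NK cell-like cells, where 34 of 84 *Igkc* UMIs lay in 1 cell, to 8.05 (5.04 to 13.5) in AdipoΔ/Δ dendritic cell-like cells. T cell-like cells had 7.06 in the control and 4.73 in the AdipoΔ/Δ library, and monocyte-like cells 3.79, with 41 of 163 *Igkc* UMIs in 1 cell, and 3.83. Levels of *Ighm* also differed between clusters beyond counting error, where every UMI is taken as independent. Of the 125 *Ighm* UMIs in the control NK cell-like cluster led by *Gzma*, 16 lay in 1 cell. The macrophage-like cluster led by *Folr2*, *Lyve1* and *Cd209f* had 457 CPM (372 to 555) in the control and 454.5 (411 to 501) in the AdipoΔ/Δ library. The main NK cell-like cluster, led by *Gzma*, had 86.5 (72.0 to 103) and 110.3 (93.1 to 130), and the macrophage-like cluster led by *Gpnmb* had 195 (71.7 to 425, from 6 UMIs in 13 cells) and 50.2 (38.4 to 64.5). Over 15 clusters the log2 levels of *Ighm* in the libraries had a Pearson r of 0.488. The clusters named by a leading gene here were chosen after their values were seen, and the origin of these UMIs was not tested.

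Within other classes the *Ighm* UMIs were spread thinly. At most 16 UMIs in the control and 15 in the AdipoΔ/Δ library fell in 1 cell, and 3 and 11 cells held at least 10. Unthinned, 44.0% and 46.9% of other cells had an *Ighm* UMI. *Igkc* was seen in 18.5% of control cells with *Ighm* and 13.9% of those without, and in 21.0% and 16.7% in the AdipoΔ/Δ library, so most cells with *Ighm* lacked *Igkc*. Of all *Ighm* UMIs in kept cells, other classes held 7.57% and 5.64%.

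Among 9442 genes outside the antibody loci, those with levels over 26 pairs of class and library most like those of *Ighd* included *Pax5* (Pearson r of log2 levels 0.912), *Cr2* (0.907), *Fcmr* (0.897) and *Fcer2a* (0.891). Genes most like *Jchain* are not given, since the plasma cells were chosen by *Jchain* itself. Points of 1 library share its depth. *Pax5* had 152 and 213 CPM in B cell-like cells and 0 UMIs in plasma cells of both libraries.

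Other genes of antibody production were taken from 6 lists. Beside their counts, 28.4% of all genes passed the limit in B cell-like cells, 40.8% in plasma cells and 22.4% in other classes. Of 13 genes of the B cell receptor complex and its signalling, all had enough UMIs in B cell-like cells, where 1 was higher (*Btk*, 1.52, 0.888 to 2.55) and 12 were within 1.5-fold. In plasma cells 5 had enough, with 2 higher and 1 lower, and in other classes 10, with 2 higher and 1 lower. *Cd79a*, which carries the signal of membrane antibody, had 3508 and 3152 CPM in B cell-like cells. Of 15 plasma cell and secretory genes, 14 had enough UMIs in plasma cells, with 1 higher, 5 lower (among them *Mzb1*, *Hsp90b1* and *Sec11c*) and 8 within. *Mzb1*, a chaperone cofactor of IgM assembly, stood at 2067 CPM in the control and 916 in the AdipoΔ/Δ library. In B cell-like cells 9 of the list had enough, with 2 higher, and in other classes 12, with 5 higher.

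Of 7 other constant and surrogate chain genes, *Vpreb3* alone had enough UMIs in B cell-like cells and was lower there, at 352 and 204 CPM (ratio 0.580, 0.415 to 0.797). *Ighg1* alone had enough in plasma cells, and *Ighe* had 0 UMIs in all classes. Of 6 switching and germinal centre genes, *Bcl6* alone had enough in B cell-like cells, with 12 and 8 UMIs (1.55, 0.551 to 4.14), and 0 had enough in plasma cells. Of 10 immunoglobulin receptors 4 had enough in B cell-like cells, with *Fcgr2b* lower (0.651, 0.312 to 1.26), and *Fcer1g* alone had enough in plasma cells and was lower. Of 8 B-1 and marginal zone genes 3 had enough in B cell-like cells, all within 1.5-fold, and *Plac8* alone had enough in plasma cells and was lower. In other classes these lists had 1 of 1, 2 of 4, 3 of 7 and 3 of 8 genes higher, and 0, 2, 0 and 2 lower, where 16.6% of all genes were higher and 5.78% lower. *Cd5*, a surface marker of B-1a cells, had 1 UMI in the B cell-like cells of each library. Genes of the lists named for passing the limit and *Cd5* were chosen after their values were seen.

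Markers of other cells moved with the class in part. Beside the counts for B cell-like cells, 28.4% of all genes passed the limit there, 18.5% higher and 9.96% lower. The red blood cell list was lower in the AdipoΔ/Δ library for 4 of 4 genes, with a summed level of 14741 CPM in control and 62.5 CPM in AdipoΔ/Δ B cell-like cells. Its most abundant gene there, *Hbb-bs*, had 3731 of its 3752 control UMIs in 1 cell. In plasma cells the list had 1516 and 5.48 CPM, and in other classes 52.7 and 7.71. Of the 120 *Hbb-bs* UMIs in control plasma cells, 60 and 59 lay in 2 cells. Of the 10 B cell markers, 10 were within 1.5-fold in B cell-like cells, and of the 8 plasma cell markers with enough UMIs in plasma cells 7 were within and 1 was lower. In plasma cells 4 B cell markers had enough UMIs, with 3 higher in the AdipoΔ/Δ library, *Ly6d* (1.89, 1.43 to 2.50), *Ms4a1* (2.62, 0.987 to 8.13) and *Cd79b* (1.51, 0.941 to 2.47), and 1 within, beside 40.8% of all genes past the limit. In other classes 6 B cell markers had enough UMIs, beside 22.4% of all genes past the limit. There 3 were lower, *Cd79a* (0.650, 0.425 to 0.987), *Ebf1* (0.639, 0.368 to 1.09) and *Ly6d* (0.517, 0.334 to 0.790). *Bank1* was higher (2.66, 1.94 to 3.69) and 2 were within. Plasmacytoid dendritic cell markers had a summed 225 and 588 CPM in B cell-like cells, where 2 of the 3 with enough UMIs were higher, *Siglech* (0 and 36 UMIs) and *Bst2* (3.85, 2.24 to 6.78), and *Tcf4* was within. *Cox6a2* had 0 and 19 UMIs. In other classes 5 of these markers had enough UMIs, of which 2 were higher and 3 within. Those higher were *Siglech* (3.59, 2.17 to 6.19) and *Cox6a2* (5.15, 1.96 to 17.1). *Hbb-bs*, *Ly6d*, *Ms4a1*, *Cd79a*, *Cd79b*, *Ebf1*, *Bank1*, *Siglech*, *Bst2*, *Tcf4* and *Cox6a2* were chosen after their values were seen. The part of these cells in the levels of the listed genes was not tested, beyond the value of *Iglc3* without the cell with the most *Hbb-bs*.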

How the data were processed

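CD45+ BAT cells were captured as 1 control and 1 AdipoΔ/Δ library (10x 3′ v3.1). The authors used Cell Ranger 4.0.0 with mm10, and the deposited unit is raw counts of UMIs. Kept cells were clustered with Seurat 5.3.0 and sctransform 0.4.2 (anchor integration, 2000 features less 8 antibody genes, 20 components, resolution 1) and named where at least 3 markers of a list were at least 2-fold up and seen in at least 10% of cells. Scrublet (Scanpy 1.11.5, rate 0.02) called 8 cells per library, which were left in. Intervals used SciPy 1.17.1, and the code of those of ratios was run on simulated data. The simulated counts were independent, as the intervals take them, so this does not test the intervals on UMIs clumped in cells. Thinning drew 1000 UMIs per cell, and shallower cells were left out. Genes named are the listed ones, leading variable genes, those most like *Ighd* (at least 100 UMIs, log2 of CPM plus 1), the top 3 of the B cell-like cluster and up to 4 per list, the most abundant, beside genes said to be chosen after their values were seen. The members and lists were chosen with earlier results of these data known. Alternatives changed 1 choice at a time: the mitochondrial, gene, *Jchain*, thinning and chain limits, the definition of B cells, resolution, integration, scaling, doublets and single cells left out. The exceptions were the light chain limits, where the UMI minimum and the share of 1 type were changed together, and integration. Without it, log normalization also replaced sctransform. In that setting and at resolution 2.0 the plasma cell-like cluster had 112 and 84 cells instead of 20. Its cells under the *Jchain* limit were in no class. Other classes then held 1969 control and 1859 AdipoΔ/Δ cells, and 1966 and 1889 at resolution 2.0. Positions and sequences come from GRCm38.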

Additional observations from a re-analysis of the deposited data

Results flagged for a closer look

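Values outside the comparisons came from barcodes that the filters left out and from a gene outside the list of 10. Among the left-out control barcodes, 2 had at least 5 *Jchain* UMIs. They held 126 and 15 *Jchain* UMIs, were led by *Ighm* (320 and 61 UMIs) and *Iglc1* (448 and 44 UMIs), and had 16.0% and 27.6% mitochondrial UMIs, above the limit of 10%. With them the left-out control barcodes held 505 *Iglc1* UMIs, against 42 in the left-out AdipoΔ/Δ barcodes. *Ighg1*, a gamma chain gene that is not listed, had 1189 UMIs in control plasma cells, all in 1 cell, and 0 in AdipoΔ/Δ plasma cells, which allows up to 16.5 CPM. These values are given because signal appeared in data that the comparisons do not use.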

How the results depend on the processing

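No paired analysis was possible because each group is 1 library and the labels pair no animals. Of 158 values recomputed for the main results, 100 stayed inside the counting interval of the main value or, for counts of genes, within 1.5 times the main count, and 58 moved further. The cause was not tested unless the change itself shows it. The level of all 10 genes in control B cell-like cells (19847.5 CPM) became 20257 with a mitochondrial limit of 2%, 19339.5 with at least 500 detected genes, 17351 by a marker gate, 20263 without integration, 20274 without Scrublet calls, 20253 over UMIs outside antibody genes, 21749.6 as a mean of single cells and 19480.0 without the top cell of each gene. In AdipoΔ/Δ B cell-like cells (18934 CPM) it became 20283 and 20949 with limits of 5% and 2%, 15561 by the gate, 19675 without integration, 20337 as a mean and 18033 without top cells. In control plasma cells (601851 CPM) it became 610962 with at least 500 genes, 544254, 610426 and 618020.0 with at least 2, 10 and 40 *Jchain* UMIs (the last chosen after seeing the data), 1548600.0 over UMIs outside antibody genes, where the smaller denominator raises it, 439920.0 as a mean and 498039 without top cells. In AdipoΔ/Δ plasma cells (634743 CPM) it became 641081 and 654373 with limits of 5% and 2%, 381932 with at least 2 *Jchain* UMIs, 1750840.0 over UMIs outside antibody genes, 608415 as a mean and 426136 without top cells. Of listed genes past 1.5-fold, B cell-like cells had 2 with a limit of 2%, 1 by the gate, 1 as a mean and 1 without the cell with the most *Hbb-bs* (chosen after seeing the data), instead of 0, and other classes had 6 as a mean instead of 3. The plasma cell count of 7 stayed within 1.5 times under all its alternatives. Of 266 ratios of single genes, 216 stayed in their interval, 49 moved and 1 that had passed 1.5-fold changed sides of 1, that of *Iglc2* in plasma cells, to 0.670 without the cell with the most *Iglc2*. Among the 49 moved, ratios within 1.5-fold also changed sides of 1, those of *Igkc* (0.924 by the gate) and *Iglc1* in B cell-like cells (1.61 with a limit of 2%, 1.21 by the gate and 1.05 without its top cell), *Jchain* in plasma cells (with at least 2 *Jchain* UMIs), and, in other classes, *Iglc3* (0.530 without integration) and *Jchain* (0.954 with at least 40 *Jchain* UMIs). *Ighd* was seen in 40% of control and 41.8% of AdipoΔ/Δ B cell-like cells thinned to 500 UMIs, in 78.8% and 85.7% unthinned and in 34.4% and 37.7% by at least 2 UMIs, and *Ighm* in 8.24% and 10.4%, 44.0% and 46.9%, and 2.21% and 2.51% of other cells, since fewer UMIs or a stricter limit leave fewer cells. *Ighm* in other classes was 175 CPM in the AdipoΔ/Δ library with a limit of 5%. The left-out barcodes, which are of no class, had 939 and 323 CPM, with 320 and 61 of the 539 control UMIs in the 2 barcodes that held at least 5 *Jchain* and 0 *Igkc* UMIs. Its ratio to *Igkc* was 4.79 and 4.22 without cells with at least 5 UMIs of B cell markers, and 2.76 and 2.09 in left-out barcodes, where the control value includes those 2. The left-out control barcodes held 195 *Igkc* UMIs, which without those 2 exceed their *Ighm* UMIs. Kappa B cell-like cells were 8.17% and 14.8% with at least 5 UMIs and 90% of 1 type. By the type with more UMIs they were 82.9% and 91.1%, and with *Igkc* and *Iglc1* only 90.6% and 88.6% (both chosen after seeing the data). *Ighm* led in 88.3% of control B cell-like cells by the gate. In plasma cells, shares of kappa and of *Ighm*-led cells stayed in their intervals under all alternatives. Few cells limit the plasma cell values, and 91 AdipoΔ/Δ B cell-like cells limit the shares there.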

Other observations

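The values below were chosen after they were seen. Among plasma cells, 2 control cells, which carried *Ighv1-11* or *Igkv8-16*, also held 60 and 59 *Hbb-bs* UMIs, and only 4 of the 2279 kept control cells held at least 50. The AdipoΔ/Δ cells that share *Ighv9-3* and *Iglv1* held 53 and 32 UMIs of *Lyz2*, a gene of myeloid cells, where the other AdipoΔ/Δ plasma cells held at most 3. Control plasma cells with 6 and 14 *Jchain* UMIs held 50 and 28. At least 30 were held by 608 of 2279 kept control and 604 of 2016 kept AdipoΔ/Δ cells. *Iglv1* was also the leading light variable gene of the AdipoΔ/Δ cell with 11518 *Iglc2* UMIs, with 19 UMIs. It led in every lambda plasma cell with a leading light variable gene, among them a control cell (4 UMIs) and another AdipoΔ/Δ cell (104 UMIs).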
